A study of Mus musculus with 4 samples.

Results

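Open chromatin over protein-coding sequence was described in dental mesenchyme from the incisors of 4-week-old wild-type C57BL/6 mice. The assay was ATAC-seq: a transposase inserts sequencing adapters where DNA is free of nucleosomes, and the reads from such places count as openness. The labels give 4 samples, which are lanes 1 to 4 of 1 library, no treatment, and neither the number of mice nor any sorting of the cells. The deposited tables hold 1 value per region for the 4 lanes together, so every value below comes from 1 library without replicates. A coding region here is an open region whose midpoint lies in coding sequence of a protein-coding gene, over 1 kb from every transcription start site (TSS) of a protein-coding gene in the GENCODE vM21 basic annotation (mm10). There were 1730 such regions among 121574 in all (1.42%), in 1441 genes. They were compared with the 7092 regions in introns of the same 1441 genes, also over 1 kb from a TSS.

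The library held 2297894 reads in regions, of which coding regions took 22296, or 0.970% (exact binomial 95% interval 0.958 to 0.983%). Intervals here cover counting error only, and the counting unit (reads or read pairs) and any removal of duplicates are not given in the sources used here. The labelled tissue was checked on regions within 1 kb of the TSSs of marker genes. Of the 19702 genes with coding sequence over 1 kb from a TSS, 69.3% had such a region. Where one was present, the median over all genes was 34 reads. Of 9 dental mesenchyme markers 8 had such a region, with 676 reads in all, and Barx1 had none. All 5 odontoblast markers had one (186 reads in all, median 18). Most of these reads lay at Col1a2 (115), with 27 at Ibsp, 18 at Dspp, 17 at Col1a1 and 9 at Dmp1. Of 5 leukocyte markers 0 had one, while 3 of 4 endothelial markers had one (28 reads in all) and 3 of 4 epithelial markers had one (24 reads). The endothelial and epithelial shares were near that of all genes, and with so few genes per list a share is uncertain. The endothelial reads lay at Cdh5 (13) and Tie1 (15), and the region of Emcn held 0 reads. The part of these other cells in the results below was not tested.

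Open chromatin away from TSSs lies mostly in introns and between genes, where enhancers recruit transcription factors. Coding exons carry a second load, since their bases are constrained by the protein they encode, and they are richer in G, C and CpG pairs than the introns around them. Stretches of coding sequence can also overlap CpG islands, which stay unmethylated and nucleosome-poor at most mammalian promoters, and alternative promoters can lie inside a gene. CTCF is the zinc finger protein that bounds chromatin loops, and AP-1 is the FOS and JUN dimer that binds at many enhancers.

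Sequences of 4 coding regions with many reads show how far the number of CG pairs differs at a similar GC content (60.2 to 61.2%). Each line gives a midpoint and the 100 bases on either side of it, on the plus strand of mm10, with CG pairs in capitals. The window of B430305J03Rik, a gene known only by its clone name, lies at chr3:61363917-61364117 and holds 8 CG pairs in the region with the most reads. That of Spaca6, which encodes a sperm protein needed for fusion with the egg, lies at chr17:17838100-17838300 and holds 19. That of Prr36, a proline-rich protein, lies at chr8:4213356-4213556 and holds 3. That of Btd, the enzyme biotinidase that recycles biotin, lies at chr14:31662143-31662343 and holds 11.
B430305J03Rik: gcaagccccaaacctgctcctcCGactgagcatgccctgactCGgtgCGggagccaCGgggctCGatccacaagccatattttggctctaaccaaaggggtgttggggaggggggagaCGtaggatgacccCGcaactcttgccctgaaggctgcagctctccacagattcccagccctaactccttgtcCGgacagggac
Spaca6: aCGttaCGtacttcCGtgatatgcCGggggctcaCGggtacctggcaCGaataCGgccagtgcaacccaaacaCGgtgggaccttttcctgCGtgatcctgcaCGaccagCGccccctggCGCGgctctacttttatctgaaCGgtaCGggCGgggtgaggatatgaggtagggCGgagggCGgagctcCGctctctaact
Prr36: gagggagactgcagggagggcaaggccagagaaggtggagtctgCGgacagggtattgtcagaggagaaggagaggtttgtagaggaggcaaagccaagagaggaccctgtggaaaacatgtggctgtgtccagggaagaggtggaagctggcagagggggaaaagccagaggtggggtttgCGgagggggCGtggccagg
Btd: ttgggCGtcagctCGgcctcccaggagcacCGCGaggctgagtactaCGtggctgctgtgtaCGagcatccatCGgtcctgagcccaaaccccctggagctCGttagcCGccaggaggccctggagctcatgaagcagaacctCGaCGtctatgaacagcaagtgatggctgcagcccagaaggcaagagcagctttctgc

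Short stretches around a CTCF match (CCA, any 2 bases, AG, any 2 bases, GGCA) come next, with the match in capitals, because the share of coding regions with this motif stood well above that of other coding sequence. The matches lie in Prrt4 (proline-rich transmembrane protein; chr6:29171068-29171110, plus strand), Nynrin (chr14:55863961-55864003, minus strand) and Adgre5 (the adhesion receptor CD97; chr8:83724959-83725001, plus strand), and all their bases are coding.
Prrt4: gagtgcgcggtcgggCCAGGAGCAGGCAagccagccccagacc
Nynrin: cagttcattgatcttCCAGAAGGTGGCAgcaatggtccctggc
Adgre5: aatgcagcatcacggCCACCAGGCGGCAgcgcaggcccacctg

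Stretches around an AP-1 match (TGANTCA) are shown from the plus strand for contrast, since that motif did not exceed its share in other coding sequence. In Gdf15, a secreted stress-induced growth factor (chr8:70630102-70630138), the match is coding. In Ankrd66, an ankyrin repeat protein (chr17:43534831-43534867), the region is centred on coding sequence but the match lies outside it.
Gdf15: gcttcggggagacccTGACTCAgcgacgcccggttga
Ankrd66: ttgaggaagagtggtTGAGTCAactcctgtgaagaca

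Most coding regions were narrow and weak, with the same median as intronic regions, but more of them reached high read numbers. A coding region had a median of 6 reads (quartiles 2 to 13) and a mean of 12.9, against a median of 6 (quartiles 2 to 13) and a mean of 11.6 in intronic regions of the same genes. At least 10 reads were held by 609 coding regions (35.2%, interval 32.9 to 37.5%) and by 34.2% of intronic regions (33.1 to 35.3%), beside 39.0% of all regions. At least 50 reads were held by 81 coding regions (4.68%, 3.74 to 5.79%) against 2.85% of intronic regions (2.47 to 3.26%), and at least 100 reads by 23 coding regions (1.33%, 0.845 to 1.99%) against 0.465% of intronic regions (0.321 to 0.653%). No read was found in 121 coding regions (6.99%) and in 6.08% of intronic regions. Coding regions were a little wider, with a median of 270 bp against 247 bp, so that their median was 20.9 reads per kb against 23.8 reads per kb in intronic regions. The ratio of mean reads, coding over intronic, was 1.11 and turned with the definition. It fell to 0.960 per kb of width, 0.888 for regions with at least 50% of their bases coding and 0.808 within classes of equal GC content. It was 1.15 without the intronic region with the most reads, which lies in Cep295 and holds 2871. A few regions carried much of the signal in both classes: the top 5% of coding regions (86 regions, with 48 reads or more) held 35.1% of coding reads, and the top 5% of intronic regions (355) held 34.9% of theirs.

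**Figure D1:**
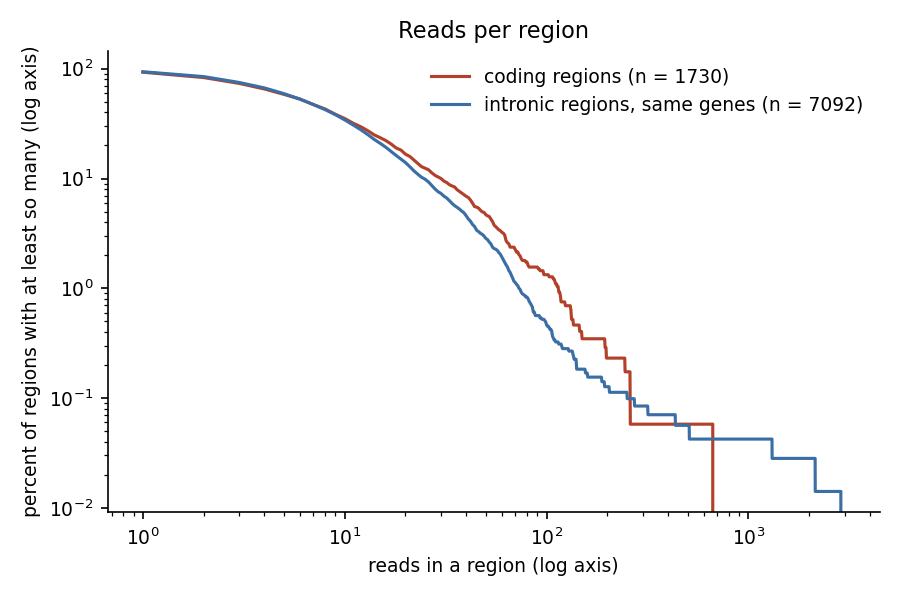
Percent of regions (log axis) with at least a given number of reads (log axis), for 1730 coding regions and 7092 intronic regions of the same genes in 1 library. The curves run together up to about 10 reads (35.2% of coding and 34.2% of intronic regions), the coding curve is higher at 100 reads (1.33% against 0.465%), and it ends at 666 reads while the intronic curve goes on to 2871.

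Within a gene the typical coding region did not have more reads than the typical intronic one. Of the 1441 genes 932 had both kinds and 509 had no intronic region. The median of the coding regions was higher in 428 of the 932 genes (45.9%), lower in 468 and equal in 36. The median difference, coding minus intronic, was -0.5 reads, with quartiles of -5 and 6. With only regions of at least 10 reads, 50.2% of 249 genes had the higher median in coding regions.

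Coding regions often took in non-coding sequence, and those with the least coding sequence had the most reads. A median of 72.2% of a region's bases were coding, and 548 regions (31.7%) were wholly coding. Wholly coding regions had a median of 5 reads, as had the 841 with at least 50% but not all of their bases coding. The 341 regions with under 50% of their bases coding had a median of 11 reads and a mean of 21.7. They were also wider, with a median of 361 bp against 251 bp in each of the other classes, and the part of width was not tested. Of all coding regions, 687 (39.7%) abutted another region without a gap, as did 34.2% of intronic regions, so that neighbouring regions are not independent measurements.

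The coding regions with the most reads lay in genes of unrelated roles. The highest, with 666 reads (Poisson 95% interval 616 to 719), was at chr3:61363043-61364992 over the only coding exon of B430305J03Rik, and just 27.1% of its 1950 bases were coding. Its midpoint lay 1.93 kb from the nearest protein-coding TSS of the basic annotation but 490 bp from one that RefSeq gives for Rap2b, a small GTPase gene on the opposite strand. Spaca6 and Angptl6, an angiopoietin-like secreted protein, each had a region with 259 reads. The Spaca6 region (chr17:17837881-17838520) covered its coding exon 7 of 9 and that of Angptl6 (chr9:20877861-20878716) its coding exon 1 of 5. Neither gene had a region within 1 kb of its TSSs in the basic annotation, which is meant below wherever a region near a gene's TSSs is given, and Spaca6 had 1 read in 1 intronic region while Angptl6 had no intronic region. Magi2, a synaptic scaffold protein, had 244 reads over its last coding exon (chr5:20701555-20702771), 180 kb from a basic TSS. Magi2 also had 547 reads in 58 intronic regions and 238 reads within 1 kb of its TSSs, whereas B430305J03Rik had 57 reads near its TSS and no intronic region.

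Of the other 11 of the 15 highest regions, 10 are described here by role. Regulators of transcription and signalling were Prdm2, a PR-domain histone methyltransferase with 194 reads in its region, Tfap2a, the neural crest factor AP-2 alpha with 135, and Notch4, a Notch receptor with 117. Neuronal genes were Sptbn4, the spectrin of axon initial segments, and Cacna1a, the pore of P/Q-type calcium channels, with 132 reads each. Enzymes were Carns1 (carnosine synthase) with 131 reads and Btd with 117. Vsig8, an immunoglobulin-domain membrane protein, had 197 reads, Kbtbd11, a kelch and BTB-domain protein, had 149, and Prr36 had 145 in the only wholly coding region of the 15. The reads in other regions of these genes differed widely. Sptbn4 had 238 reads within 1 kb of its TSSs and no intronic region. Tfap2a had 127 reads near its TSSs and 7 intronic reads, and Notch4 had no region near its basic TSSs and 9 intronic reads.

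**Figure D2:**
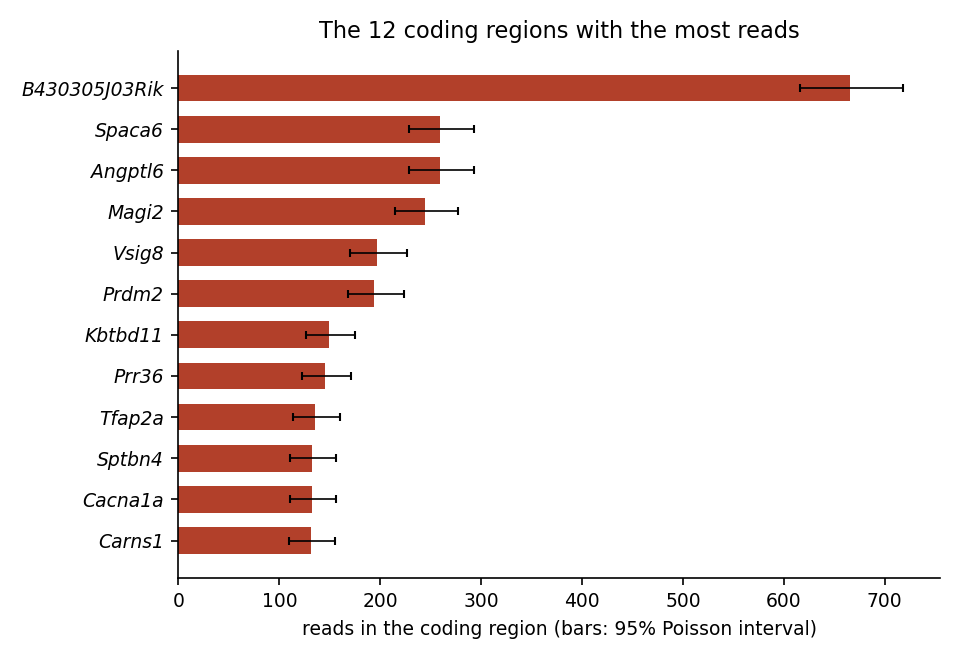
Reads in each of the 12 coding regions with the most reads, named by gene, with 95% Poisson intervals. B430305J03Rik stands alone at 666 reads, 3 regions lie between 244 and 259, and the interval of each of the other 8 overlaps that of its neighbour.

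Many of the strongest coding regions lay near a TSS that only fuller annotations hold. Within 1 kb of a TSS of the full GENCODE set or RefSeq were 523 coding regions (30.2%, interval 28.1 to 32.5%), against 11.6% of intronic regions (10.9 to 12.4%). The sequence itself differed in the same direction: 20.7% of coding sequence over 1 kb from a basic TSS lay within 1 kb of one in the fuller sets, against 6.69% of intronic sequence. Of the 100 coding regions with the most reads, 46 lay that close. Of the 14 described above, 10 lay within 508 bp of such a TSS, and those of Vsig8, Prr36, Sptbn4 and Btd lay 3334 to 20957 bp from one. The nearest TSS was that of another transcript of the gene itself for Spaca6, Angptl6, Prdm2, Kbtbd11 and Notch4. It belonged to an antisense or other gene for Tfap2a (13 bp), Carns1 (101 bp), Magi2 (114 bp) and Cacna1a (359 bp).

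Measured per length of sequence, coding sequence held slightly more regions than introns, but far fewer than introns of the same GC content wherever that was below 65%. Over all genes there were 56.7 regions per Mb in 30.5 Mb of coding sequence and 47.5 per Mb in 897 Mb of intronic sequence, a ratio of 1.19 (95% interval 1.14 to 1.25). In the 1441 genes alone the values were 465 and 64.5 per Mb, a ratio of 7.21, but those genes were taken for having a coding region. Coding sequence had a median GC content of 50.7% and a mean of 4.56 CpG pairs within 100 bp on either side of a position, against 42.3% and 1.70 in introns. At 55 to 60% GC there were 62.3 coding against 152 intronic regions per Mb, a ratio of 0.41 (0.37 to 0.46). In every class of 5 points below 65% the ratio lay between 0.40 and 0.52, and the interval included 1 only below 35% GC, where 3 coding regions were found. At 65 to 70% GC the order turned, with 447 coding against 355 intronic regions per Mb, a ratio of 1.26 (1.07 to 1.48), and above 70% the intervals included 1. At the intronic rates of its GC classes, coding sequence would hold 3234 regions, and it held 1730 (0.535 of that). Classes of CpG number gave 3241 regions and classes of distance to a TSS 1502.

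**Figure D3:**
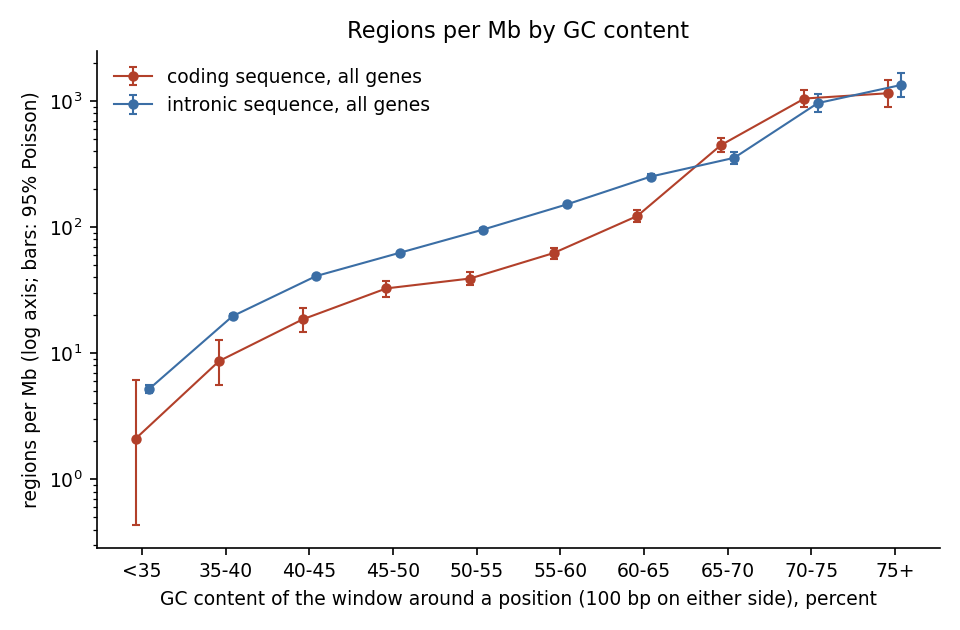
Regions per Mb (log axis) in coding and intronic sequence of all genes by GC content within 100 bp on either side, with 95% Poisson intervals. Coding sequence lies below intronic sequence in every class under 65% GC, although with 3 coding regions the intervals overlap under 35%, and lies at 447 against 355 per Mb at 65 to 70%.

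By CpG number the ratio was below 1 in the classes with fewer pairs and near 1 in the highest. Coding sequence with 6 to 9 CpG pairs in that window held 54.5 regions per Mb against 149 in introns, a ratio of 0.37 (0.33 to 0.41). With 15 pairs or more it held 876 against 803, a ratio of 1.09 (0.96 to 1.24), and its regions had a median of 8 reads against 15 in intronic ones. Coding regions were also placed differently along the distance to a TSS. They numbered 145 per Mb at 1 to 2 kb, 67.2 at 2 to 5 kb and 42.5 at 20 to 50 kb, against 65.1, 36.9 and 52.9 intronic regions per Mb at the same distances. Over 100 kb from a TSS there were 51.9 coding against 37.6 intronic regions per Mb, a ratio of 1.38 (1.12 to 1.69). On either side of the 1 kb limit, the 128 coding regions in the 250 bp just outside it had a median of 7 reads and the 175 regions centred on coding sequence in the 250 bp just inside it a median of 8.

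Coding regions fell into CpG-rich ones and others, divided after their values were seen at a GC content of 55% and a ratio of observed to expected CpG of 0.6. CpG-rich regions numbered 671 (38.8%) among coding and 152 (2.14%) among intronic regions. The CpG-rich coding regions held 55.6% of the coding reads, with a median of 7 and a mean of 18.5, against a median of 10.5 and a mean of 26.3 in CpG-rich intronic regions. The other 1059 coding regions had a median of 5 reads and a mean of 9.34, against 6 and 11.3 in the other intronic regions. CpG-rich coding regions lay closer to a TSS, at a median of 3.97 kb, than the other coding regions at 16.6 kb. Of the 15 highest coding regions, those of Prr36 and Btd were not CpG-rich.

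Single, first, last and long coding exons held the most regions per length. On the longest coding transcript of each gene, only coding exons held 125 regions per Mb (interval 107 to 145) and first coding exons 122 (104 to 143), against 86.6 (78.6 to 95.2) in last and 42.2 (39.6 to 44.9) in internal ones. Exons with up to 200 bp of coding sequence held 41.0 regions per Mb, those over 200 and up to 500 bp 65.3, those over 500 and up to 1000 bp 93.7 and those over 1000 bp 79.4. The GC content of these classes by coding length spanned 50.3 to 53.2%. Neither the GC content of the classes by position nor the distance of any class to a TSS is given here. The share of CpG-rich regions among the coding regions was 13.2% in the shortest class, 44.8% in the next, 69.9% over 500 and up to 1000 bp and 58.8% over 1000 bp. Median reads per region lay between 5 and 8 in all 8 classes.

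**Figure D4:**
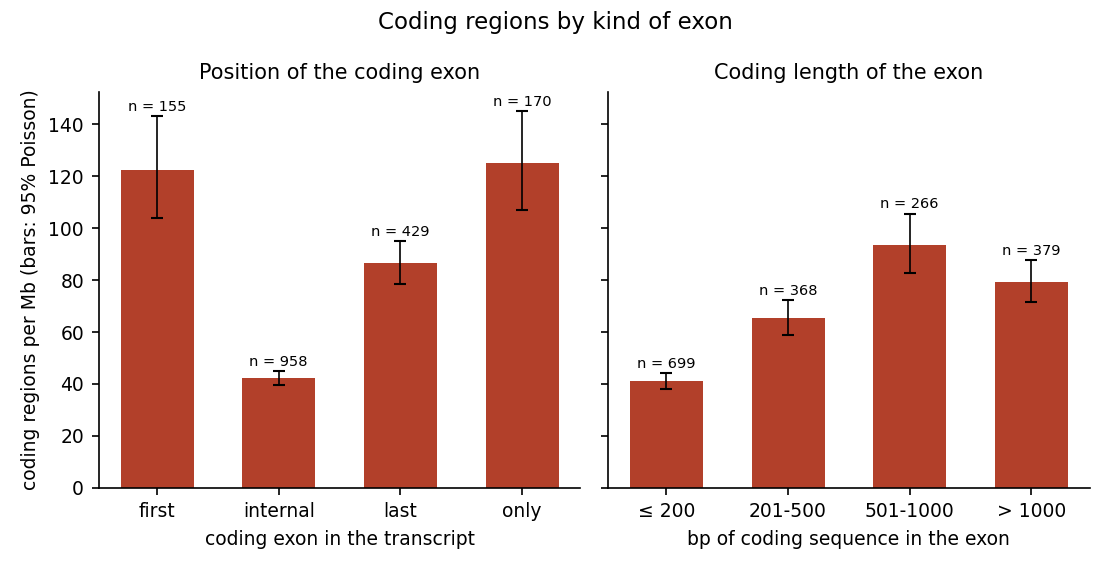
Coding regions per Mb of coding sequence over 1 kb from a TSS, by position of the exon (left) and by its coding length in bp (right), with 95% Poisson intervals and the number of regions. Internal exons (42.2 per Mb) and exons up to 200 bp (41.0 per Mb) are lowest.

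Most host genes had a single coding region. Of the 1441 genes (7.31% of the 19702 with coding sequence over 1 kb from a TSS) 1199 had 1, 197 had 2, 38 had 3, 4 had 4, 2 had 5 and 1 had 7. The gene with 7 was Tchh, which encodes trichohyalin of the hair follicle's inner root sheath. Its regions, all in 1 exon and wholly coding, held 17, 70, 1, 2, 19, 4 and 41 reads in genome order, in an abutting run of 3 and another of 4. Tchh had no intronic region and no region near its TSSs. Sema4a, a membrane-bound semaphorin, had regions with 4, 9, 2, 46 and 4 reads and no intronic region. Fmn2, a formin that nucleates actin in oocytes, had 14, 20, 46, 4 and 10 reads. Sptbn4 had 132, 9, 3 and 30 reads, and Syne1, the nuclear envelope protein nesprin-1, had 1, 62, 3 and 10 reads. In Sptbn4, Sema4a and Syne1 a single region held most of the coding reads, while in Tchh and Fmn2 they were spread over several.

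Coding regions reached 2 or more exons in 106 genes. Syne1 had them in 4 exons. Several genes had them in 3, and of these Sptbn4, Fmn2, Espn and Eps8l1 had the most coding reads. Espn, an actin-bundling protein of hair cell stereocilia, had regions with 13, 1 and 81 reads, and Eps8l1, a relative of the actin regulator EPS8, had 21, 45 and 4 reads. The genes whose coding reads most exceeded their intronic reads were B430305J03Rik, Spaca6, Angptl6, Vsig8 and Prr36. Vsig8 had 197 coding and 3 intronic reads, and Prr36 had 181 coding reads in 3 regions and no intronic region. Because a gene without an intronic region counts as 0 there, this order follows the coding reads closely.

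Host genes had a region near their own basic TSS somewhat more often than genes in general, with similar reads. A region within 1 kb of a basic TSS was present in 1099 host genes (76.3%, interval 74.0 to 78.4%), against 69.3% of the 19702 genes. Where one was present, host genes had a median of 31 reads there against 34 over all genes. Host genes had more coding sequence to hold a region, with a median of 1.74 kb against 1.13 kb over 1 kb from a TSS. In the 342 host genes without a region near a basic TSS, 48.4% of coding regions were CpG-rich, against 35.6% in the other host genes, and the median was 6 reads in both. Genes with many coding reads among those 342 were Spaca6, Angptl6, Vsig8, Prr36, Tchh and Notch4, and also Lpar5, a lysophosphatidic acid receptor, with 114, Gdf15 with 90 and Lor, the cornified envelope protein loricrin, with 85. In Spaca6, Angptl6 and Notch4 the coding region itself lay 81, 226 and 508 bp from a TSS of the gene in the fuller annotations. Lpar5 and Lor were named after their values were seen.

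Coding regions in genes of tooth development, signalling and adhesion mostly had few reads. A larger share of these genes than of all genes had one, but the share does not allow for the length of coding sequence. The 42 laminins and integrins held 156 kb of it over 1 kb from a TSS and the 20 Notch and hedgehog genes 67.6 kb. The 31 semaphorins, plexins and neuropilins held 104 kb and the 19 dental mesenchyme factors 13.7 kb, against 30626 kb in all 19702 genes. Over all genes 7.31% had a coding region, at 56.5 regions per Mb of coding sequence. The interval of the share lay above 7.31% for Notch and hedgehog genes and for laminins and integrins. It included 7.31% for dental mesenchyme factors and for semaphorins, plexins and neuropilins. Per Mb, the interval lay above 56.5 only for the dental mesenchyme factors, on 4 regions, and included it for the other lists of this paragraph. Of 19 dental mesenchyme factors 4 had a coding region (21.1%, interval 6.05 to 45.6%), at 292 regions per Mb (79.6 to 748), with a median of 3 reads against 6 over all coding regions. Pax9, a factor needed for tooth development, had 21 reads over coding sequence, 40 in 2 intronic regions and 117 near its TSSs. Dlx1, a distal-less homeobox factor, had 5 coding reads, in a region 130 bp from a TSS of the fuller annotations, and no intronic region. Lhx6, a LIM homeobox factor, had 1 coding read against 83 intronic reads. Prrx1, counted among the 4 genes, also had 1 read in its coding region. Of 20 Notch and hedgehog genes 6 had one (exact interval of the share 11.9 to 54.3%), at 104 regions per Mb (41.6 to 213), led by Notch4 with 117 reads, the receptor Notch3 with 15 and the ligand Dhh with 8. The Notch4 region covers the last coding exon, 508 bp from the TSS of another Notch4 transcript. Dll3, counted among the 6 genes, had 0 reads in its coding region. Of 42 laminins and integrins 9 had one (21.4%, 10.3 to 36.8%; median 6 reads), at 57.9 regions per Mb (26.5 to 110). They were led by Itgb4, a hemidesmosome subunit, with 36, Itgb7, a leukocyte integrin subunit, with 23, and Lamb1, a laminin beta chain, with 14. The coding regions of Itga2b and Itgb8, counted among the 9 genes, held 0 reads. Of 31 semaphorins, plexins and neuropilins 5 had one (16.1%, 5.45 to 33.7%), at 86.8 regions per Mb (39.7 to 165), led by Sema4a with 65 reads in 5 regions, the receptor Nrp2 with 35 and Sema4f with 13.

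Among gene families, the zinc finger genes had an interval below the share of all genes. Of 392 zinc finger genes named Zfp 13 had one (3.32%, interval 1.78 to 5.60%), against 7.31% of all genes, and their coding sequence held 26.3 regions per Mb (15.8 to 41.1) against 56.5 over all genes. Zfp771 had 112 reads, Zfp697 had 64 and Zfp219 had 49, while Zfp648 had 0. Of 57 clustered protocadherins 2 had one (3.51%, 0.428 to 12.1%), Pcdhac2 with 4 reads and Pcdhgc3 with 0. Of 39 Hox genes 1 had one (2.56%, 0.0649 to 13.5%), Hoxc9 with 3 reads. Of 44 collagens 5 had one (11.4%, 3.79 to 24.6%), at 30.6 regions per Mb (11.2 to 66.6). Col28a1 had 73 reads in coding regions and 32 in intronic regions, Col22a1 had 35 and 136, and Col8a2 had 3 and 85. Of 27 chromatin regulators 5 had one (18.5%, 6.3 to 38.1%), at 27.9 regions per Mb (9.05 to 65.1), among them the BAF subunit Arid1b with 11 reads and the BCL6 corepressor Bcor with 4. Arid1b had 308 intronic reads and Bcor had 305. Kmt2c, counted among the 5 genes, had 0 reads in its coding region. Reads assigned to near-identical copies are uncertain in the zinc finger and protocadherin families, since the rules for reads with several matches are not given in the sources used here.

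Coding regions were scarce on chromosome X, and so were intronic ones. Chromosome X held 16 coding regions, or 14.1 per Mb (8.07 to 22.9), and 11.6 intronic regions per Mb. Autosomes held 35.7 to 77.2 coding and 44.8 to 55.5 intronic regions per Mb. Chromosome 9 was the lowest autosome for coding regions (63 regions, 35.7 per Mb, 27.4 to 45.7), while its intronic value of 49.2 per Mb lay within the range of the others.

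The motifs in coding regions differed from those in intronic regions, in part as the underlying sequence does. Exact matches were counted on both strands in each midpoint's window (100 bp on either side). The same windows were taken in 174844 coding exons without a region and 26618 places in introns of the host genes without one. The coding exons were not limited to the host genes, so the exon and intron backgrounds come from different sets of genes. CTCF matches were in 38 coding regions (2.20%, interval 1.56 to 3.0%), against 0.345% (0.318 to 0.373%) of coding exons without a region. They were in 2.37% of intronic regions (2.03 to 2.75%), against 0.804% (0.700 to 0.919%) of introns without a region, and in 2.48% of all regions. So the share with a CTCF match was close in coding and intronic regions, and in both above that of the same kind of sequence without a region. Among regions with at least 10 reads it was 1.97% of coding (1.02 to 3.42%) against 3.71% of intronic regions (3.0 to 4.54%). The 5 coding regions with the most reads and a match were those of Prrt4 (49 reads), Rragd, a Rag GTPase (21), Nynrin (20), H2-T23, a non-classical MHC class I gene (19), and Adgre5 (18). The match lay outside coding bases in Rragd and inside them in the other 4. Coding regions with a match had a median of 7 reads and those without 6, against 10 and 6 in intronic regions.

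The AP-1 motif stood above introns without a region in intronic regions, while in coding regions the interval included the share in other coding exons. It was in 66 coding regions (3.82%, interval 2.96 to 4.83%), against 4.73% (4.63 to 4.83%) of coding exons without a region. It was in 8.18% of intronic regions (7.55 to 8.84%), against 6.20% (5.92 to 6.50%) of introns without one, and in 6.69% of all regions. Coding regions that were not CpG-rich had a match in 5.48% (4.18 to 7.02%) and intronic regions that were not CpG-rich in 8.33% (7.69 to 9.0%). Median reads of coding regions were 3.5 with an AP-1 match and 6 without. The 5 with the most reads were those of Gdf15 (90 reads), Ankrd66 (58), 1810062G17Rik (29), Tert, the telomerase reverse transcriptase (22), and 4930564D02Rik (22). In Ankrd66 and Tert the match lay outside coding bases.

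The homeobox and TEAD motifs were rarer, and the GC-rich motifs SP/KLF, NRF1 and ETS commoner, in coding than in intronic regions as a whole. Among CpG-rich regions the order of SP/KLF turned, at 33.7% of coding (30.1 to 37.4%) against 50.7% of intronic regions (42.4 to 58.9%), and ETS was in 3.73% of coding (2.43 to 5.45%) against 5.26% of intronic ones (2.30 to 10.1%). Among the regions that were not CpG-rich both stayed commoner in coding ones. There SP/KLF was in 9.35% of coding (7.66 to 11.3%) against 5.56% of intronic regions (5.03 to 6.13%). ETS was in 3.12% of coding (2.15 to 4.35%) against 0.793% of intronic ones (0.598 to 1.03%). The AT-rich homeobox core (TAATTA) was in 3.47% of coding regions (2.66 to 4.44%) and 3.09% of coding exons without a region, against 11.1% of intronic regions, 6.65% of introns without one and 8.87% of all regions. The TEAD motif (GGAATG) was in 7.46% of coding regions, below the 10.5% of coding exons without a region, and in 14.3% of intronic and 12.5% of all regions. Among coding regions that were not CpG-rich it was in 9.25%, with an interval (7.58 to 11.2%) that included 10.5%. It was in 14.5% of such intronic regions (13.7 to 15.4%). The exons without a region were not split by CpG class. The SP/KLF box (GGGCGG) was in 18.8% of coding regions (17 to 20.7%) and 4.58% of coding exons without a region, against 6.53% of intronic and 14.3% of all regions. The NRF1 motif (GCGCA, any base, GCGC) was in 29 coding regions (1.68%, 1.13 to 2.40%) and 0.0921% of coding exons without a region, against 5 intronic regions (0.0705%, 0.0229 to 0.164%) and 0.846% of all regions. Of those 29 coding regions 26 were CpG-rich, and their median was 15 reads against 6 in coding regions without the motif. The E-box (CAGCTG) was in 21.6% of coding regions (19.7 to 23.6%) and 15% of coding exons without a region. It was in 15% of intronic regions, 8.27% of introns without one (7.94 to 8.60%) and 14.3% of all regions. The E-box share thus stood above that of the same kind of sequence without a region, in coding and in intronic regions. The RUNX motif (TGTGGT) was in 13.8% of coding regions and 14.3% of coding exons without a region, against 18.1% of intronic and 16.3% of all regions. Among regions that were not CpG-rich it was in 18% of coding (15.8 to 20.5%) and 18.4% of intronic ones (17.5 to 19.3%). ETS (CCGGAAG) was in 3.35% of coding, 0.888% of intronic and 2.58% of all regions. Without a region, it was in 2.19% of coding exons and 0.560% of introns, so that sequence differed in the same direction. NFI (TTGGC, any 5 bases, GCCA) was in 0.578% of coding, 0.395% of intronic and 0.324% of all regions, and the intervals of coding and intronic regions overlapped. None of the 10 motifs contains another. Base composition moved with these shares: the windows of coding regions had a median GC content of 59.2%, those of coding exons without a region 49.8%, those of intronic regions 48.3% and those of introns without a region 43.3%. Its part in each share was not tested beyond the CpG classes. A match is a description of the sequence and not a bound site.

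**Figure D5:**
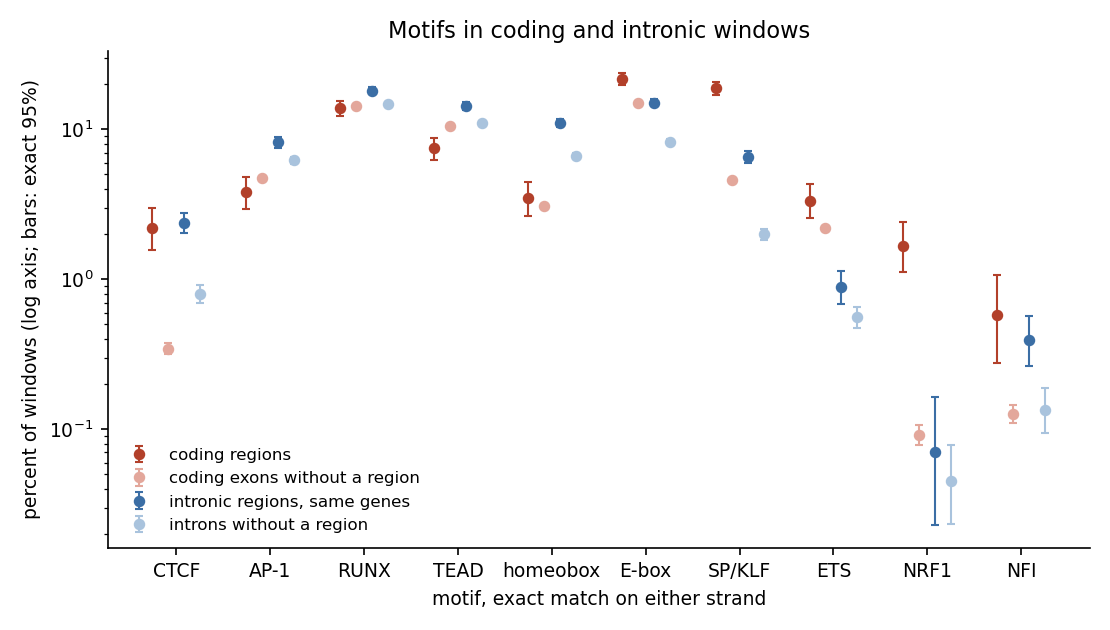
Percent of windows (log axis) with an exact match to each of 10 motifs, in coding regions, coding exons without a region, intronic regions of the same genes and introns without a region, with exact binomial 95% intervals. CTCF lies at 2.20% in coding and 2.37% in intronic regions, above both kinds of sequence without a region, while AP-1 lies at 3.82% in coding regions against 8.18% in intronic ones.

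Coding regions held little repeat sequence. A mean of 4.48% of their bases were masked as repeats in the reference, against 9.35% in intronic regions, and 57.7% of coding regions had none, against 41.4% of intronic regions.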

How the data were processed

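ATAC-seq values of dental mesenchyme from wild-type mouse incisors were taken as deposited. Alignment to mm10 was by BWA-MEM and peak calling by MACS2, per the labels' protocols. STAR 2.6.1d and Partek are named in the submitters' processing notes. Any shift for the transposase offset, any removal of duplicates, and the libraries behind the region calls are not given in the sources used here. Duplicates, if kept, would raise some counts.

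The authors deposited CPM values for 121574 regions, which were whole multiples of 0.0484 in 99.9% of them (tolerance 0.01 read; 84 others were rounded). Reads were recovered as that multiple minus 1, and the step implies a divisor of 20662737. The deposited table of expected counts, held for 16382 regions, differed from them by at most 0.00155. It served only as an alternative. The 1 other value column was not used. The deposited values combine the 4 lanes, so no lane was analysed apart and no test between samples was possible.

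Regions were placed by midpoint on the GENCODE vM21 basic annotation, coding sequence before intron, and bases were read from the RefSeq copy of GRCm38 (Python 3.11, pysam 0.24.0, scipy 1.17.1, pandas 2.3.3). Regions per Mb were counted over sequence sampled every 200 bp for classes of GC, CpG and distance. Intervals are exact 95% Poisson and Clopper-Pearson binomial intervals, and ratios use the binomial interval given the sum of both counts. The scripts were tested on simulated data. Alternatives changed the TSS set and distance, the coding share, the read minimum, the merging of abutting regions, the transcripts, the introns and the source of the reads.

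The members and the 9 gene lists were chosen with earlier results of these data known. The genes named were those of the 15 coding regions with the most reads, the 5 with the most regions, exons reached or excess over intronic reads, the 3 highest of each list, and the 5 highest regions with a CTCF and with an AP-1 match; 2 of these genes are not reported here.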

Additional observations from a re-analysis of the deposited data

How the results depend on the processing

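The ratio of mean reads per region, coding over intronic, was 1.11 and depended on the processing. It was below 1 with at least 50% of the bases coding (0.888), per kb of width (0.960) and within GC classes of 5 points (0.808). It was 1.08 over 2 kb from a TSS and also with the TSSs of every annotated gene, 1.25 with at least 10 reads, 1.17 with abutting regions merged, 1.07 without first introns, 1.02 on the chromosomes of the shorter table with the reads of either table, 1.19 against introns of all genes and 1.04 with the TSSs of the full GENCODE set and RefSeq. The last 2 settings and the long table's reads on those chromosomes were chosen after seeing the data. The cause was not tested.

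The ratio of regions per Mb in the same genes, 7.21, was 6.69 over 2 kb from a TSS, 17.4 with at least 10 reads, 8.24 with abutting regions merged, 8.21 with the fuller TSS sets and 1.19 against introns of all genes, where the genes are not chosen for a coding region. Apart from that last setting, the genes were chosen again for a coding region that passed each setting, so the gene set changed. With at least 10 reads 573 genes were left of 1441, so 17.4 and 7.21 do not compare the same genes. The share of genes with the higher median in coding regions, 45.9%, was 38.1% with at least 50% of the bases coding, 50.2% with at least 10 reads, 42.0% per kb and 42.7% with the fuller TSS sets. With at least 10 reads 609 coding regions were left of 1730, and the AP-1 share was 2.30% in place of 3.82%. The CTCF share of coding regions stayed within its interval under each alternative that was run for it (1.97 to 2.66%).

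Leaving out a lane was not run, because the tables give 1 value for all lanes. No paired analysis was possible because there is 1 library and 1 group. At this depth a region at the median of 6 reads carries a wide counting interval, so single regions of few reads cannot be ranked.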
